A study of Macaca mulatta with 28 samples.

Results

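The transcripts described here encode the neuronal nicotinic acetylcholine receptor subunits of the macaque ventral tegmental area (VTA). They were taken from the deposited count table by gene symbol, by a rule that uses no measured value, although the list was drawn up with earlier results of these data known. The list named 9 genes, of which 8 were read (CHRNA2, CHRNA3, CHRNA5, CHRNA6, CHRNA7, CHRNB2, CHRNB3 and CHRNB4), out of 16885 transcripts with a symbol. CHRNA4 was not analysed here. Each symbol was paired with 1 Ensembl transcript, so every level below is the level of that transcript and may be less than the level of the whole gene. All 8 passed the filter of at least 5 counts in at least 3 animals, which 13769 transcripts passed in all.

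Bulk RNA-sequencing was done on VTA punches from 28 male, wild-type rhesus macaques. There were 17 drinkers that self-administered 4% ethanol, first in an induction phase, then with open access for 22 h a day over 12 months, and then in shorter periods of renewed access, set apart by months of forced abstinence, and 11 controls that were calorically yoked or housing controls and received none. By their labelled drinking phenotype the drinkers were 1 low, 2 binge, 5 heavy and 9 very heavy drinkers, and all libraries, those of the controls included, were labelled as taken at 30 days of abstinence, which was the last of several such periods. The animals belonged to 2 cohorts, cohort 1 with 8 drinkers and 8 controls, and cohort 2 with 9 drinkers and 3 controls. Cohort 1 held the low drinker, 4 of the heavy and 3 of the very heavy drinkers, and cohort 2 held both binge drinkers, 1 heavy and 6 very heavy drinkers, so that cohort and drinking category overlapped only in part. The 2 kinds of control could not be separated from the labels.

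Nicotinic receptors are pentameric ion channels opened by acetylcholine or by nicotine. Most α subunits need β2 or β4 to form a channel, while α7 can form one by itself. In midbrain dopamine neurons, receptors with α4 and β2 carry much of the response to nicotine, the α6 and β3 subunits are known as markers of catecholamine neurons, and α5 and β3 act as accessory subunits that shape conductance and assembly. The genes CHRNA5, CHRNA3 and CHRNB4 form a cluster that is widely known from genetic studies of smoking.

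On the RefSeq annotation of Mmul_10, the build used by the authors, CHRNA5 lay at chr7:55801051-55829454 on the plus strand, CHRNA3 at chr7:55830971-55857831 on the minus strand and CHRNB4 at chr7:55862155-55878414 on the minus strand. CHRNA5 and CHRNA3 were 1.5 kb apart, and CHRNA3 and CHRNB4 4.3 kb apart. CHRNB3 (chr8:43312186-43346978, plus strand) and CHRNA6 (chr8:43369202-43438352, minus strand) were neighbours as well, 22.2 kb apart. The remaining subunits were scattered, with CHRNB2 at chr1:96451151-96464068, CHRNA7 at chr7:6122838-6267790 and CHRNA2 at chr8:27727647-27747523, all on the minus strand. An annotated pseudogene lies within CHRNB3 and a predicted protein-coding gene within CHRNA7, each in a single short stretch. The overlap was taken over whole gene spans, introns included, and overlap with exons of the quantified transcripts was not tested. Reads from those stretches may be uncertain for both.

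Library totals ran from 12303914 to 27338669 counts, and transcripts of the mitochondrial genome took 36.4% to 60.6% of each total. Tyrosine hydroxylase (TH), the enzyme that makes the dopamine precursor and marks dopamine neurons, ran from 5.58 to 826 CPM (a count relative to its library total, scaled by edgeR's TMM factors), with a median of 93.1. That is a 148-fold range over the 28 punches, and both arms covered most of it, from 5.81 to 826 CPM in controls and from 5.58 to 712 CPM in drinkers. In bulk tissue, fewer dopamine neurons in a punch and less RNA per neuron cannot be told apart. Serotonin neuron markers (TPH2, SLC6A4 and FEV) summed to a median of 0.361 CPM with a highest value of 10.4 CPM, and the red nucleus and habenula markers POU4F1 and GPR151 summed to between 0 and 4.13 CPM.

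By their medians CHRNA7, CHRNA6 and CHRNA2 were the most abundant subunit transcripts on a scale per length (CPM divided by the median length of the RefSeq mRNAs, in kb). The medians were 3.63 CPM per kb for CHRNA7, 2.78 for CHRNA6, 1.72 for CHRNA2, 0.796 for CHRNA3, 0.466 for CHRNB3, 0.22 for CHRNA5, 0.0867 for CHRNB4 and 0 for CHRNB2. Neighbours in this order were not separated beyond their spread. The animal-by-animal log2 difference between CHRNA7 and CHRNA6 was 0.63 ± 1.65 (SD, n = 28), and CHRNA7 was the higher in 16 of 28 animals. Between CHRNA2 and CHRNA3 it was -0.20 ± 3.03, against the order of their medians, with CHRNA2 at 0 in 6 animals and the higher in 18 of 28. Between CHRNB3 and CHRNA5 it was 2.13 ± 2.29, with CHRNB3 the higher in 23 of 28. The order is a description of these transcript models, whose lengths differ from one RefSeq mRNA to the next for CHRNA2, CHRNA5, CHRNA6, CHRNB2 and CHRNB3.

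The members also differed in how evenly they were expressed across animals. CHRNA7, the subunit of the α7 receptor, was the steadiest, with a lowest value of 3.35, a median of 7.56 and a highest value of 11.6 CPM. CHRNA3, which is best known from autonomic ganglia and the habenula, ran from 0.266 to 7.8 CPM with a median of 3.53. CHRNA6 ran from 0.807 to 26 CPM (median 6.6) and CHRNB3 from 0 to 13.7 CPM (median 0.962). CHRNA2 had the widest spread, from 0 in 6 animals to 83.3 CPM in heavy drinker 1, with a median of 7.17 CPM. Of its 22 values above 0, only 1 was a whole number within 0.0005, as happens where the quantifier divides reads between transcripts, so its level is uncertain. By comparison, 24 of 28 CHRNA3 values and 25 of 27 CHRNB3 values above 0 were whole.

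The last members of the list were near the limit of detection. CHRNA5 was at 0 in 5 animals and reached 64 counts, with a median of 0.513 CPM. CHRNB4 was at 0 in 8 animals and had no more than 15 counts in any library. CHRNB2 was listed at 0 in 23 animals, and its 87 counts came from 5 animals: very heavy drinker 3 with 41, very heavy drinker 7 with 29, binge drinker 2 with 10, control 10 with 5 and control 4 with 2. None of these 5 values was whole, so the caution on shared reads given for CHRNA2 holds for CHRNB2 as well. In all, 1309 transcripts were listed at 0 in every animal, so a 0 here does not show that the gene was silent.

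**Figure D1:**
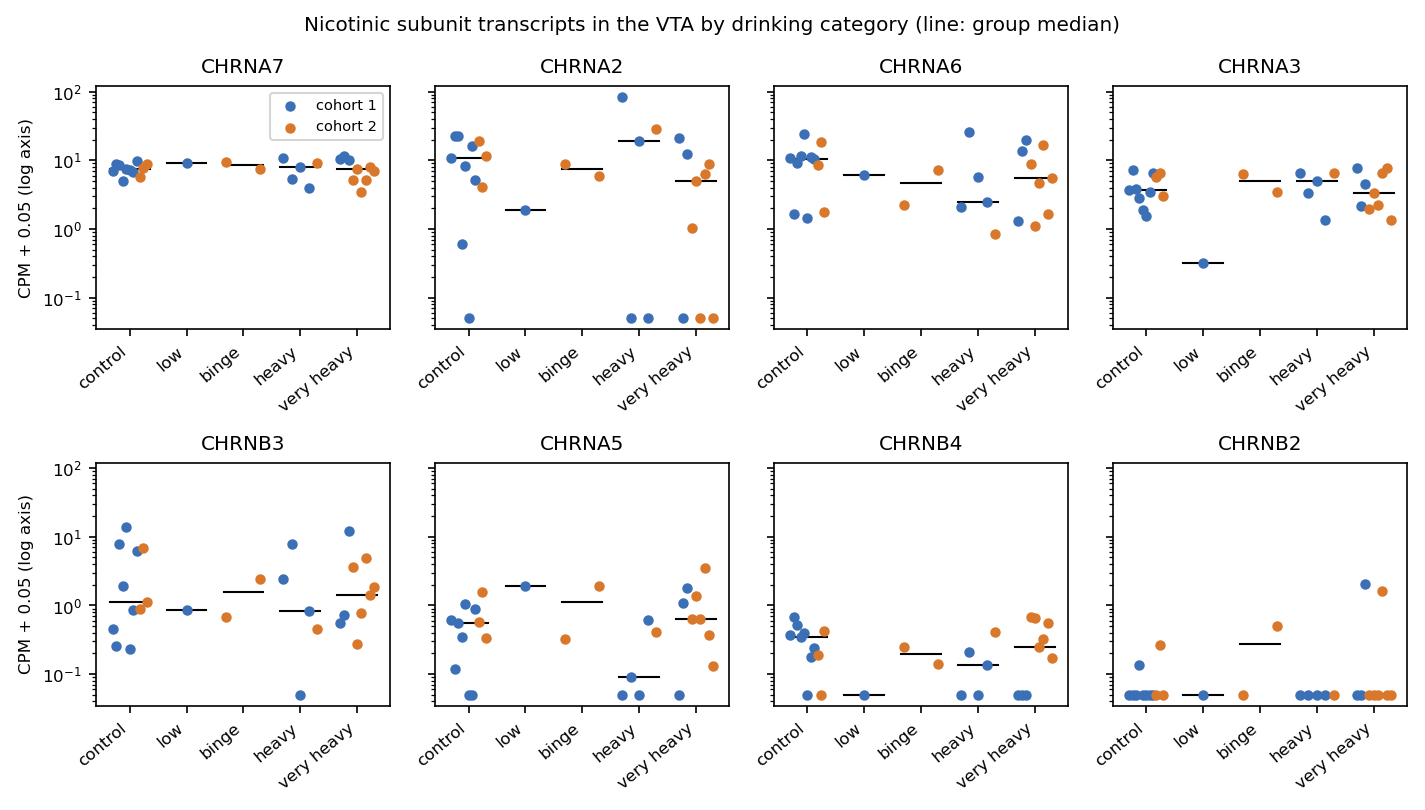
Level of each subunit transcript in CPM (with 0.05 added, log axis) for every animal, by drinking category and coloured by cohort, with a line at the group median. CHRNA7 stayed between 3.35 and 11.6 CPM in all categories, whereas CHRNA2 ran from 0 to 83.3 CPM and CHRNB2 was listed at 0 in 23 animals.

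Whether drinking followed by abstinence altered these transcripts was asked first over all 28 animals. CHRNA7 was at 3.35 to 11.6 CPM in drinkers (median 7.89) and at 4.97 to 9.77 CPM in controls (median 7.54), and CHRNA3 at 0.266 to 7.8 (median 3.41) against 1.49 to 7.07 CPM (median 3.65). CHRNA6 was at 0.807 to 26 CPM in drinkers (median 5.54) and 1.42 to 24.4 CPM in controls (median 10.6). CHRNB3 was at 0 to 12.3 CPM in drinkers (median 0.798) and 0.186 to 13.7 CPM in controls (median 1.08). The 2 arms overlapped for each of these 4 transcripts, and for CHRNA7, CHRNA3 and CHRNA6 the controls lay within the range of the drinkers. None of the 8 subunits passed an adjusted p of 0.05 in edgeR's quasi-likelihood test, and neither did any of the 13769 transcripts tested (0%). At an unadjusted p under 0.05 there were 629 transcripts, of which no subunit was one, and DESeq2 called 11 transcripts (0.0799%), none of them a subunit. Of the 8 subunits 4 had a higher and 4 a lower fitted level in drinkers, with a median log2 difference of 0.02 against 0.0015 over all transcripts.

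The precision of that comparison differed between subunits. For CHRNA7 the fitted log2 difference, drinkers minus controls, was 0.04 with a 95% interval of -0.31 to 0.40, and for CHRNA3 it was -0.0038 with an interval of -0.74 to 0.73. The interval was wider for CHRNA6, whose difference of -0.43 had bounds of -1.48 and 0.62, and for CHRNB3, at -0.59 with bounds of -2.04 and 0.86. CHRNA5, the accessory subunit, differed by 0.69 with bounds of -1 and 2.39. For CHRNA2 the difference was 0.12 with bounds of -1.75 and 1.98. For CHRNB2 the fitted difference of 2.82 (SE 1.39, unadjusted p = 0.0508, adjusted p = 1 by edgeR) rested on 3 drinkers and 2 controls with any count.

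**Figure D2:**
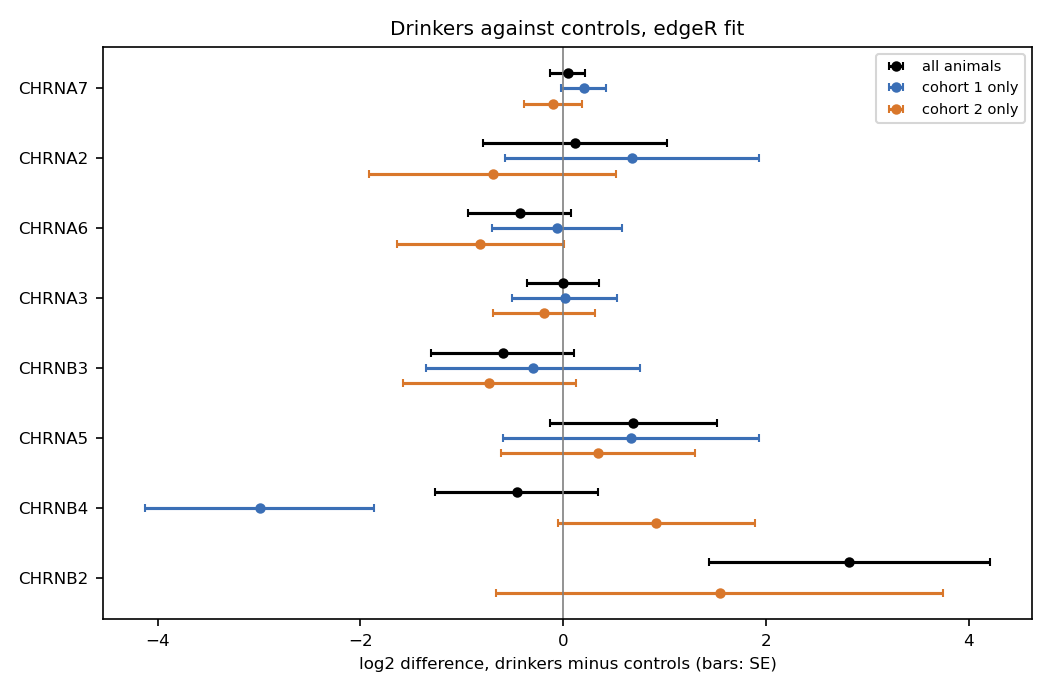
Fitted log2 difference in level, drinkers minus controls, with its SE, for each subunit transcript in all animals and within each cohort. For CHRNA7, CHRNA2, CHRNA6, CHRNA3, CHRNB3 and CHRNA5 the 3 estimates overlap within their SEs, while CHRNB4 sits at -2.99 in cohort 1 and 0.92 in cohort 2 and CHRNB2 could not be fitted in cohort 1.

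Within the cohorts no subunit passed either, but the estimates for CHRNB4, the β4 subunit of the chromosome 7 cluster, had opposite signs. In cohort 1 it was at 0 in 6 of 8 drinkers, and the other two, heavy drinkers 2 and 4, had 0.16 and 0.0859 CPM. The 8 controls of that cohort ran from 0 to 0.63 CPM with a median of 0.31, and 1 of them was at 0. In cohort 2 all 9 drinkers had counts, from 0.091 to 0.631 CPM with a median of 0.271, and the controls had 0.141, 0 and 0.374 CPM. The groups overlapped in both cohorts. The log2 difference was -2.99 (SE 1.13, unadjusted p = 0.0171, adjusted p = 0.326 by edgeR) in cohort 1, where 0.0382% of transcripts were called and 1330 of 13086 had an unadjusted p under 0.05, and 0.92 (SE 0.97, adjusted p = 1) in cohort 2, where 0% were, with 481 at an unadjusted p under 0.05. The test of the difference between the cohorts gave 3.92 (SE 1.70, unadjusted p = 0.0288, adjusted p = 0.452), and 0.0145% of transcripts passed it, with 1325 of 13769 at an unadjusted p under 0.05. Library totals of cohort 1 were similar in both arms, with medians of 21858556 counts in drinkers and 22379615 in controls, and the part of depth in these low counts was not tested. The summed pan-neuronal markers moved the opposite way, with means of 9040 CPM in drinkers and 5170 in controls of cohort 1, and 4130 and 7150 in cohort 2. Of 5 such markers tested, all had a lower drinker effect in cohort 2 than in cohort 1 (median log2 difference -1.24, none called by edgeR). Over all 28 animals CHRNB4 had r = -0.473 with their sum, the largest correlation in size of CHRNB4 with any list. Most of that sum (mean 6150 CPM) came from NEFM (mean 3040 CPM) and NEFL (mean 1870 CPM), so it mainly follows these genes. The part of neuronal content in the CHRNB4 values was not tested.

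Drinking categories were then compared in 1 fit with a level for each category. CHRNA6 was at 2.07, 26, 5.67, 2.41 and 0.807 CPM in heavy drinkers 1 to 5, against 1.05 to 19.7 CPM (median 5.54) in the 9 very heavy drinkers. CHRNA2 was at 83.3, 0, 18.8, 0 and 28.3 CPM in heavy drinkers 1 to 5, against 0 to 21.1 CPM (median 4.87) in very heavy drinkers. CHRNA5 was at 0, 0.0401, 0, 0.559 and 0.359 CPM in the heavy and at 0 to 3.47 CPM (median 0.592) in the very heavy drinkers. The categories overlapped for all of these, and the 2 highest CHRNA2 values of all animals belonged to heavy drinkers 1 and 5. No subunit passed in very heavy drinkers against controls, in heavy drinkers against controls or in very heavy against heavy drinkers, and edgeR called 0% of the 13769 transcripts in each of these contrasts, with 636, 984 and 936 at an unadjusted p under 0.05. By DESeq2 22, 48 and 56 transcripts were called in the same order (0.16%, 0.349% and 0.407%), again with no subunit among them.

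Between very heavy and heavy drinkers the largest fitted differences were for CHRNB2 (log2 difference 6.12, SE 2.26, unadjusted p = 0.0128, adjusted p = 0.617 by edgeR), CHRNA5 (2.38, SE 1.27, adjusted p = 0.808) and CHRNA2 (-2.11, SE 1.25, adjusted p = 0.879). All 5 heavy drinkers were listed at 0 for CHRNB2 and 7 of the 9 very heavy drinkers were as well, so that its estimate depends on the prior count and is no measure of size. The low drinker had 1.86 CPM of CHRNA2, 0.266 of CHRNA3, 1.86 of CHRNA5, 6.01 of CHRNA6, 9.04 of CHRNA7 and 0.798 of CHRNB3. Its CHRNA3 level, 5 counts, was the lowest of all 28 animals. Binge drinkers 1 and 2 had 2.18 and 7.19 CPM of CHRNA6 and 0.633 and 2.37 CPM of CHRNB3, and in both genes the second animal, which had more TH (227 against 22.4 CPM), was the higher.

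Cohort itself, tested with arm as a covariate, gave no call among the subunits, where 6 transcripts (0.0436%) were called in all by edgeR and 121 (0.879%) by DESeq2. CHRNB4 had the largest estimate, higher in cohort 2 by a log2 difference of 2.12 (SE 0.98, unadjusted p = 0.04, adjusted p = 0.469). It was at 0 in 7 of 16 animals of cohort 1 and in 1 of 12 of cohort 2. CHRNA5 was at 0 in 5 animals of cohort 1 and in no animal of cohort 2, at a log2 difference of 0.69 (SE 0.81, adjusted p = 0.882).

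Across animals CHRNB3 rose with TH, CHRNA6 had a positive slope that passed only under some settings, and CHRNA7, CHRNA3, CHRNA2 and CHRNB4 had slopes near 0 or below. To ask which subunits varied with TH, whether through the number of dopamine neurons or their RNA, the slope of each transcript on log2 CPM of TH was fitted over all 28 animals. Of 13768 transcripts tested 78 (0.567%) were called, 61 (0.443%) rising with TH and 17 (0.123%) falling. Of 12 dopamine neuron markers tested, 7 were called as rising and none as falling. By sign alone 10 of them had a positive and 2 a negative slope. DDC, which converts the TH product into dopamine, was among those called (slope 0.97, SE 0.048, adjusted p = 1.84e-14 by edgeR). Of the 8 subunits 2 passed, both with a positive slope, CHRNB3 and, on counts from 5 animals, CHRNB2. The median slope was 0.15 over the 8 subunits and 0.00045 over all transcripts.

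CHRNB3, the β3 accessory subunit, followed TH closely. In the 4 animals with the most TH (control 5, heavy drinker 2, control 3 and control 8, at 826, 712, 653 and 644 CPM) it was at 13.7, 7.77, 7.8 and 6.23 CPM. In the 4 with the least (heavy drinker 3, control 2, control 1 and very heavy drinker 5, at 5.58, 5.81, 7.31 and 10.3 CPM) it was at 0, 0.21, 0.397 and 0.221 CPM. These low and high values did not overlap. The slope was 0.80 log2 units per log2 unit of TH (SE 0.08, adjusted p = 1.14e-07 by edgeR), and it was called in each of the 28 fits that left out 1 animal, at 0.76 to 0.83.

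Over the 28 animals Pearson's r of log2 CPM with TH was 0.917 for CHRNB3 and Spearman's rho 0.93 (both p = 1e-05, the smallest that 100000 permutations can give, two-sided). Without the 2 animals farthest from the median of TH, r was 0.902. The same relation was present in drinkers (r = 0.916, n = 17), in controls (0.938, n = 11), in cohort 1 (0.916, n = 16) and in cohort 2 (0.924, n = 12). The slope did not pass a test of difference between arms (0.21 steeper in drinkers, SE 0.15, adjusted p = 1 by edgeR) or between cohorts (-0.07, SE 0.18, adjusted p = 1), and in both tests edgeR called 0% of transcripts, with 662 and 673 at an unadjusted p under 0.05. Among 10023 transcripts with a median of at least 20 counts, the ones most like CHRNB3 across animals were TH itself, CCKAR (r = 0.913), a cholecystokinin receptor, and SLC10A4 (r = 0.887), a synaptic vesicle protein.

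**Figure D3:**
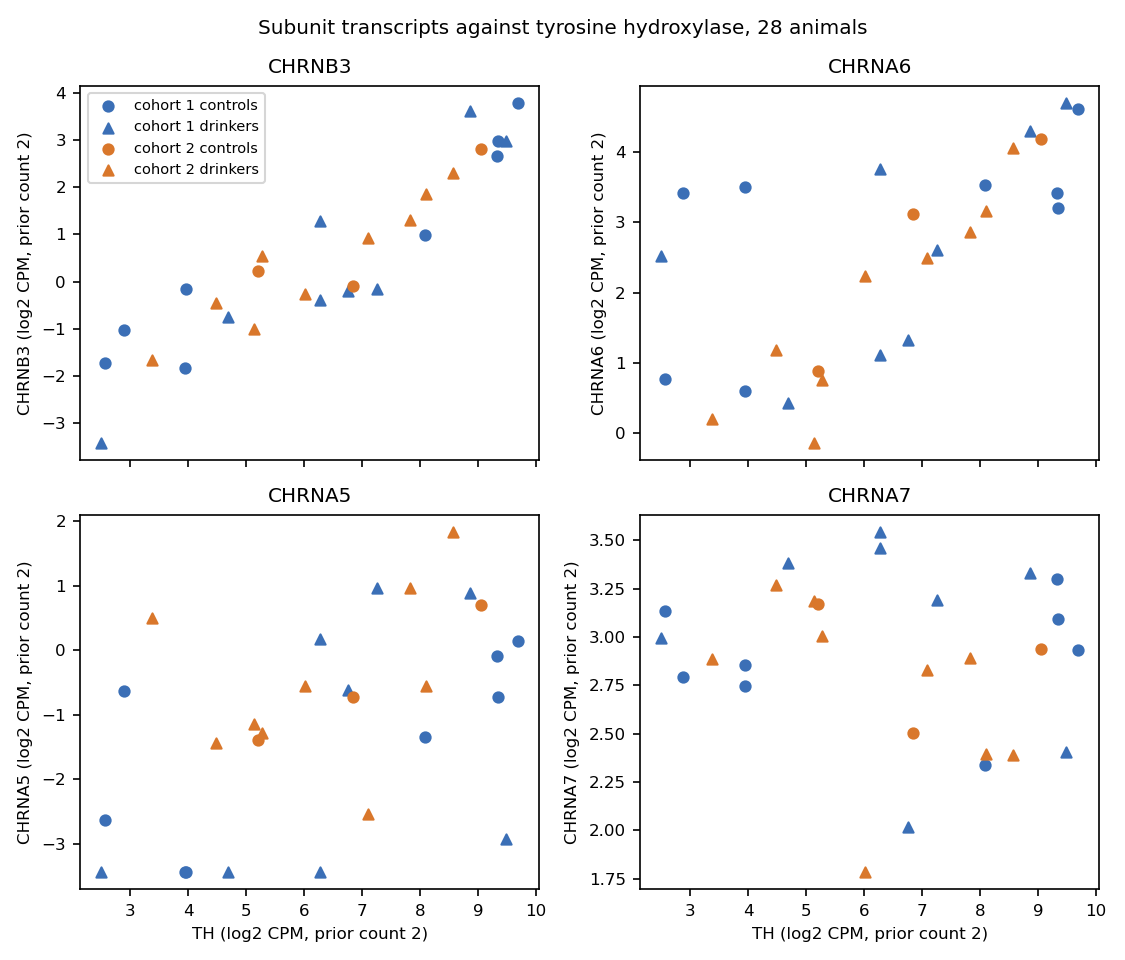
Level of CHRNB3, CHRNA6, CHRNA5 and CHRNA7 against TH (log2 CPM with a prior count of 2) in 28 animals, by cohort and arm. CHRNB3 rises along 1 line (r = 0.917), CHRNA6 rises in cohort 2 (r = 0.927) but has cohort 1 animals of low TH and high CHRNA6, and CHRNA7 shows little slope (r = -0.156).

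CHRNA6, the α6 subunit, had a positive slope on TH that did not pass over all animals. It was at 24.4, 26, 9.1 and 10.6 CPM in the 4 animals with the most TH and at 5.67, 1.61, 10.6 and 1.05 CPM in the 4 with the least, taken in the orders above. These values overlapped, since control 1 had 10.6 CPM of CHRNA6 at 7.31 CPM of TH. The slope over all animals was 0.33 (SE 0.09, adjusted p = 0.0889 by edgeR), and it passed with cohort as a covariate (0.37, adjusted p = 0.0348). It also passed without a filter on low counts (0.32, adjusted p = 0.0449), and when either control 1 or control 7 was left out, with slopes over all 28 such fits of 0.30 to 0.41. Pearson's r with TH was 0.664 by a permutation test (p = 0.00019) and Spearman's rho 0.679 (permutation p = 9e-05). Leaving out the 2 animals farthest from the median of TH gave an r of 0.69.

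Within each cohort the CHRNA6 slope on TH was positive, with the larger estimate in cohort 2. In cohort 2 the slope was 0.77 (SE 0.09, adjusted p = 0.00292 by edgeR, 0.164% of transcripts called) with r = 0.927 (n = 12), a slope close to the 0.74 of CHRNB3 in the same animals. In cohort 1 it was 0.26 (SE 0.10, adjusted p = 0.735, 0.374% called) with r = 0.582 (n = 16). The interaction between TH and cohort was 0.51 (SE 0.18, unadjusted p = 0.00845, adjusted p = 0.596), so the difference did not pass over all transcripts. Between arms the slope was 0.21 steeper in drinkers (SE 0.16, adjusted p = 1).

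The animals that departed from the line were examined with the lists of other cell types. CHRNA6 had a correlation of 0.509 with the summed red nucleus and habenula markers, after 0.725 with the dopamine neuron markers and close to the 0.473 with microglia and the 0.355 with serotonin neuron markers, so that the list does not stand apart by this measure. The main marker of that list was POU4F1, a transcription factor of red nucleus and habenula neurons. Control 1 had 4.13 and control 7 had 3.12 CPM of POU4F1, the highest and second highest of all animals, and they had 10.6 and 11.2 CPM of CHRNA6 with only 7.31 and 15.4 CPM of TH. Their CHRNB3 was low, at 0.397 and 0.801 CPM. Heavy drinker 2 and control 9 came next with 3.08 and 2.53 CPM of POU4F1, whereas very heavy drinker 2, with 13.5 CPM of CHRNA6 at 77.1 CPM of TH, had 0.935 CPM. GPR151, the other marker of the list, was at 0 in 21 of 28 animals, and its highest level, 0.779 CPM (15 counts), was in very heavy drinker 2. With POU4F1 alone CHRNA6 had r = 0.413, below its value with the summed list and with microglia.

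**Figure D4:**
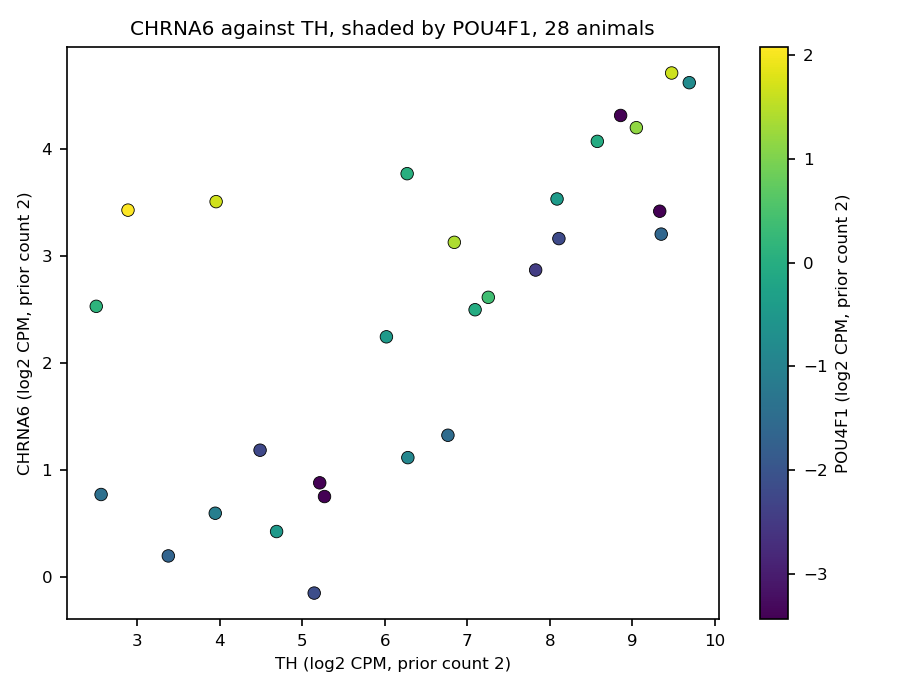
CHRNA6 against TH (log2 CPM with a prior count of 2) in 28 animals, shaded by the level of POU4F1. The 2 animals at the upper left, controls 1 and 7, with 10.6 and 11.2 CPM of CHRNA6, are the 2 with the most POU4F1, at 4.13 and 3.12 CPM.

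With POU4F1 as a second covariate the CHRNA6 slope on TH was 0.44 (SE 0.08). POU4F1 was chosen for its values in controls 1 and 7, so this slope and the correlations of CHRNA6 with POU4F1, like the fits without either of those animals, restate that they lie off the line and are no separate evidence. Within cohorts 1 and 2 the correlation of CHRNA6 with POU4F1 was 0.159 (n = 16) and 0.673 (n = 12), and that of TH with POU4F1 was -0.391 and 0.518, so that in cohort 2 POU4F1 and TH moved together. CHRNA3 and CHRNB4, which are also known from the habenula, had r = -0.173 and -0.28 with POU4F1 over all animals. Whether a neighbouring nucleus in the punch had a part in the CHRNA6 level was not tested. The transcript most like CHRNA6 across animals was FRMPD1 (r = 0.869), followed by SLC10A4 (0.786) and the thrombin receptor F2R (0.769).

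CHRNB2 was called on TH with a slope of 1.41 (SE 0.26, adjusted p = 0.00452 by edgeR), but with 23 animals listed at 0 this rests on 5 libraries, which had between 227 and 530 CPM of TH. The 4 animals with more TH than that were all listed at 0, and so was very heavy drinker 4, at 276 CPM of TH. On simulated counts, most unchanged transcripts that passed this test were at 0 in most animals, as CHRNB2 is, so its call is uncertain. edgeR called it in each of the 28 fits that left out 1 animal, at 1.2 to 1.49, but these fits rest on the same 5 libraries or all but 1 of them. DESeq2 did not call it (slope 1.06, adjusted p = 0.74), nor did the fit within cohort 2 (adjusted p = 0.13), and in cohort 1 and in the controls it had too few counts to be fitted.

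CHRNA5 had a slope of 0.36 on TH (SE 0.17, unadjusted p = 0.0466, adjusted p = 0.787 by edgeR) and r = 0.497 (permutation p = 0.0081, rho 0.487). Heavy drinker 2, with the second highest TH, had 1 count of CHRNA5, whereas very heavy drinker 7, at 381 CPM of TH, had the highest value, 3.47 CPM. The correlation was 0.733 in controls (n = 11) and 0.367 in drinkers (n = 17), and the test of a difference in slope between arms gave 0.01 (SE 0.43, adjusted p = 1).

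None of the other subunits passed. CHRNA7 had a slope of -0.02 (SE 0.04) and r = -0.156, CHRNA3 a slope of -0.05 (SE 0.08) and r = -0.15, CHRNA2 a slope of -0.18 (SE 0.20) and r = -0.202, and CHRNB4 a slope of -0.05 (SE 0.16) and r = -0.0381, all with an adjusted p of 1 by edgeR. Their rho values lay between -0.24 and -0.043. Within the cohorts CHRNB4 had r = 0.155 in cohort 1 (n = 16) and -0.553 in cohort 2 (n = 12, permutation p = 0.0616), on low counts in both. In all, 40 relations with TH were computed in this way, for 8 subunits over all animals, drinkers, controls and each cohort, and permutation p-values of the correlations are not adjusted, the adjusted p of each slope being over all transcripts.

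**Figure D5:**
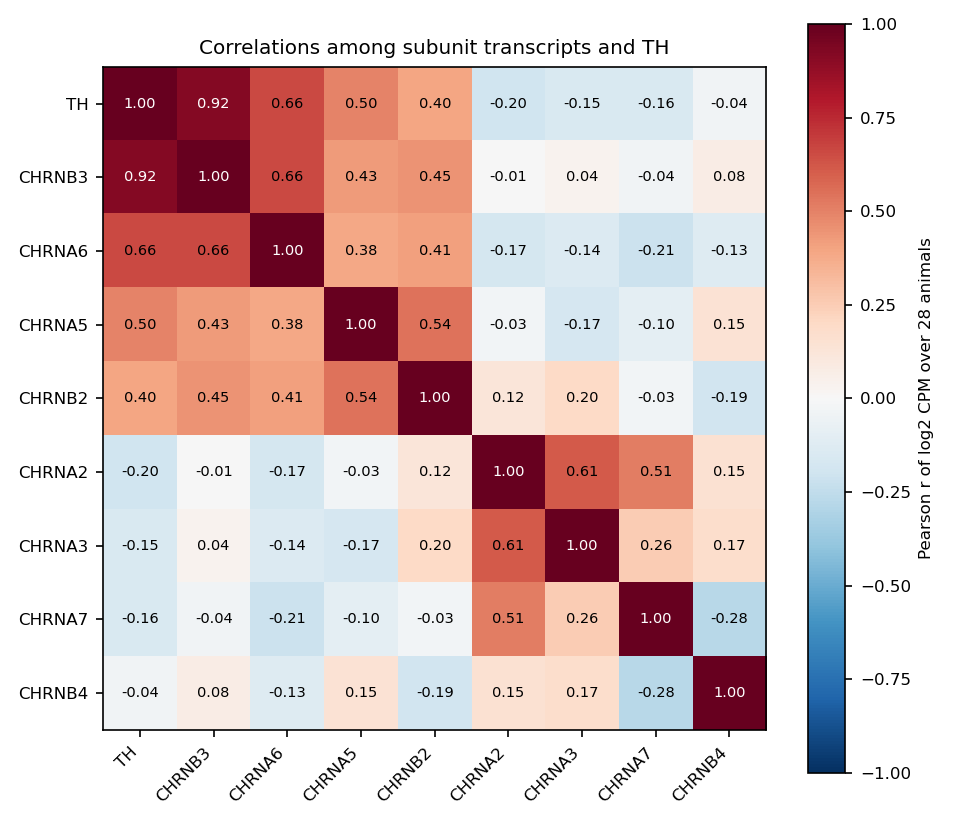
Pearson's r of log2 CPM over 28 animals for each pair among TH and the 8 subunit transcripts. TH, CHRNB3 and CHRNA6 form 1 block (r from 0.658 to 0.917) and CHRNA2 with CHRNA3 another (r = 0.611), while CHRNA5, CHRNA3 and CHRNB4, which lie side by side on chromosome 7, have r between -0.171 and 0.173.

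Among the 28 pairs of subunits, the highest Pearson's r was between CHRNA6 and CHRNB3 (r = 0.658, rho 0.677), and it was 0.165 once TH had been taken out of both. By Spearman's rho the highest pair was CHRNA2 and CHRNA3 (rho 0.705, r = 0.611, permutation p = 5e-04, unadjusted), and for this pair r was 0.6 after TH. Their r was 0.546 in cohort 1 (n = 16), 0.792 in cohort 2 (n = 12) and 0.541 without the 2 animals farthest from the median of CHRNA2. Heavy drinkers 1 and 5 illustrate it, with 83.3 and 28.3 CPM of CHRNA2 and 6.57 and 6.45 CPM of CHRNA3, as does control 6, with 0 and 1.49 CPM. CHRNA2 and CHRNA7 had r = 0.511 and rho 0.46. The shared reads of CHRNA2 apply to each of these values.

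On chromosome 7 the pooled correlations of the neighbouring genes were low. CHRNA5 and CHRNA3, 1.5 kb apart on opposite strands, had r = -0.171, with -0.463 in cohort 1 (n = 16) and 0.312 in cohort 2 (n = 12). Over all animals CHRNA3 and CHRNB4 had r = 0.173, and CHRNA5 and CHRNB4 had r = 0.145. Low counts of CHRNA5 and CHRNB4 limit what these values can show.

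The transcripts most like CHRNA3 were CACNA1G (r = 0.858), a T-type calcium channel, KIT (0.813), a receptor tyrosine kinase, and KCNIP2 (0.801), a potassium channel-interacting protein. Across the 28 animals CACNA1G ran from 3.83 to 101 CPM and KIT from 21.4 to 118 CPM. Those most like CHRNA2 were C1QL1 (0.739), CLMP (0.713) and ONECUT1 (0.708). For CHRNA7 the closest were CLDN12 (0.657), PGBD5 (0.648) and SKP1 (0.644). With the summed glutamate neuron markers SLC17A6 and SLC17A7, the vesicular glutamate transporters, r was 0.429 for CHRNA3, 0.457 for CHRNA2 and 0.523 for CHRNA7, against -0.217 for CHRNB3 and -0.333 for CHRNA6. With the summed GABA neuron markers, r was -0.513 for CHRNB3 and -0.291 for CHRNA6. Other lists gave values of similar size, with -0.46 for CHRNA3 and oligodendrocyte, -0.423 for CHRNA2 and microglia and 0.475 for CHRNB3 and serotonin neuron markers. For CHRNA7 the next largest in size with a cell type list was -0.356, with endothelial markers. All of these lists share the same libraries and the same total, and are given as descriptions.

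Of the muscle-type and sensory subunits, CHRNA1 was at 0.747 to 43.1 CPM (median 12.7) and CHRNB1 at 5.13 to 15.5 CPM (median 8.61), while CHRNG was listed at 0 in all 28 animals. None of the 6 tested was called in drinkers or with TH. Proteins that help nicotinic receptors to fold or that bind them at the surface were well detected: TMEM35A, the chaperone of α7 receptors also called NACHO, ran from 63.1 to 136 CPM (median 93.2), LYPD6 from 8.89 to 24.4 CPM, LYPD1 from 8.64 to 28.3 CPM and LY6H from 8.43 to 37.8 CPM. RIC3, another chaperone, was listed at 0 in 24 animals. None of the 6 genes of this list that were tested was called in drinkers or with TH.

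The listed transcripts of cholinergic neuron markers were at low levels. The astrocyte marker SLC1A2 was listed at 0 in all 28 animals and the pan-neuronal marker SYT1 in 24. A low level here therefore does not show that cholinergic neurons were scarce in the punches. CHAT, which makes acetylcholine, had a median of 0.153 CPM and was at 0 in 8 animals, SLC18A3, the vesicular transporter, was at 0 in 14, and SLC5A7, the choline transporter, ran from 0.425 to 4.26 CPM. The degrading enzymes were more abundant, ACHE at 17.6 to 37.8 CPM and BCHE at 13.9 to 48.1 CPM. None of the 5 passed in drinkers against controls or with TH. ACHE had a log2 difference of -0.26 in drinkers (SE 0.11, unadjusted p = 0.0247, adjusted p = 1 by edgeR).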

How the data were processed

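VTA punches of 28 animals were prepared with a poly(A) mRNA kit (Nugen Universal Plus mRNA). The authors trimmed reads with Trim Galore 0.6.7 and quantified transcripts with Salmon 1.9.0 against Mmul_10, and deposited 1 table of estimated counts that were not normalised, with 1 Ensembl transcript per symbol. The 1 row without a symbol (1.16e-05% of counts) was left out. Estimated counts were rounded to whole numbers. Groups followed the labels, and cohorts followed the study's animal lists, since the labels give none.

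The tests covered transcripts reaching 5 counts in 3 or more animals and used edgeR 4.0.16 (TMM, quasi-likelihood test, R 4.3.3), with Benjamini-Hochberg adjustment over all of them and a threshold of 0.05. DESeq2 1.42.0, RLE factors, no filter, exclusion of mitochondrial transcripts, covariates, single cohorts or arms, and omission of animals were the alternatives. SEs were derived from the fitted log2 value and the F statistic, and intervals used 26 degrees of freedom. Correlations used log2 CPM with a prior count of 2. Both fits were checked on simulated counts, where the median estimate recovered the change put in. Many changed transcripts were missed, since a log2 difference of 1 between arms was called in 44.4% and one of 2 in 68%. Slopes on TH of 0.4 and 0.8 were called in 66% and 84.8%. Unchanged transcripts passed more often than the threshold allows, most of them at 0 in the majority of animals. The p-values of the fits judge a fitted difference or slope against the variation between animals, and those of the correlations come from permutation of animals.

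Genes named were the subunits, TH, the genes of the receptor-related and cell type lists, and for each of 5 subunits with a median of at least 20 counts the 3 transcripts with the highest r. The rule for members uses no measured value, but members and lists were chosen with earlier results of these data known. POU4F1 as a covariate, the TH by cohort interaction and the 28 omissions of 1 animal for the TH slope were chosen after seeing the data, as were ratios such as r after TH. Levels per length used RefSeq mRNAs of Mmul_10, not the Ensembl transcripts, whose lengths were not used here.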

Additional observations from a re-analysis of the deposited data

Results flagged for a closer look

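In 39 tests of whether the highest or lowest animal of a group stood apart from the rest by Dixon's criterion, 10 did, all through the highest value, in 7 different animals. The criterion assumes normally distributed values, whereas CPM was not logged here and some groups share animals. The number that chance would give is therefore not known, and 10 of 39 cannot be read as an excess. For CHRNA2 they were heavy drinker 1 among the cohort 1 drinkers (83.3 CPM, 2054 counts, the next at 21.1 CPM) and heavy drinker 5 among the cohort 2 drinkers (28.3 CPM, the next at 8.89 CPM). For CHRNA6 they were heavy drinker 2 among heavy drinkers (26 CPM, the next at 5.67), control 5 among cohort 1 controls (24.4 CPM, the next at 11.4) and very heavy drinker 7 among cohort 2 drinkers (16.7 CPM, the next at 8.84). Very heavy drinker 7 also had the highest CHRNA5 of the very heavy drinkers (3.47 CPM, the next at 1.75), and very heavy drinker 3 the highest CHRNB3 (12.3 CPM, the next at 4.83).

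The animals named for CHRNA6 and CHRNB3 had the most TH of their groups, with 712 CPM in heavy drinker 2, 826 in control 5, 381 in very heavy drinker 7 and 464 in very heavy drinker 3.

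For CHRNB2 the criterion was met by very heavy drinker 3 among cohort 1 drinkers (2 CPM) and control 4 among cohort 1 controls (0.0864 CPM, 2 counts), but all others of those groups were at 0, where any single count meets it, so these say nothing. It was also met by very heavy drinker 7 among cohort 2 drinkers (1.57 CPM, the next at 0.455).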

How the results depend on the processing

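The number of subunits called was unchanged, or within 1.5 times, under 78 of 81 alternatives. It was 0 for each contrast of drinkers, categories and cohorts under all of them. For the slope on TH it was 2, and 1 with DESeq2, 1 within cohort 1 and 1 within the controls, while it was 3 with cohort or POU4F1 as a covariate and without a filter, where CHRNA6 passed as well. CHRNB3 was called each time. CHRNB2 was lost with DESeq2 and within cohort 2, and could not be fitted in cohort 1 or in the controls. The number was 2 to 3 when 1 animal was left out, 3 without control 1 or control 7. Over all transcripts 78 were called with TH and 247 without a filter, 49, 21, 18 and 25 within cohort 1, cohort 2, drinkers and controls. Cohort called 6 transcripts, 121 with DESeq2, 3 with RLE factors and 13 with TH as a covariate.

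No called subunit changed sign. Estimates that did were all uncalled, and the cause was not tested. For drinkers minus controls, CHRNA2 (0.12 over all animals) was -0.00116 with TH as a covariate and -0.696 in cohort 2, CHRNA3 (-0.0038) was 0.00486 with DESeq2, 0.00416 with RLE factors and 0.0158 in cohort 1, CHRNA7 (0.04) was -0.0973 and CHRNB4 (-0.46) 0.918 in cohort 2. Leaving out control 9, 10 or 11 from cohort 2 gave CHRNA2 -0.136, -1.1 and -0.697, and CHRNB4 0.794, 0.351 and 2.16. Without control 9 CHRNA7 was -0.26. Without control 10 it was -0.0764, CHRNA3 0.033, CHRNA6 0.0581 and CHRNB3 0.873, and without control 11 CHRNA5 was -0.053.

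With cohort as a covariate CHRNA3 was -0.04 in very heavy drinkers minus controls and CHRNB4 -0.0619 in very heavy minus heavy drinkers. In heavy drinkers minus controls CHRNA7 was 0.00374 with DESeq2 and 0.00367 with RLE factors. Leaving out 1 heavy drinker at a time, heavy minus controls ranged from -0.0291 to 0.369 for CHRNA3 and from -0.184 to 0.146 for CHRNA7, and very heavy minus heavy from -0.364 to 0.0331 for CHRNA3, from -0.175 to 1.55 for CHRNA6 and from -0.131 to 0.198 for CHRNA7. On TH, the slope of CHRNA3 was 0.0131 and that of CHRNA7 0.00961 in controls, and that of CHRNB4 was 0.0254 in cohort 1 and ranged from -0.0995 to 0.00971 without 1 animal.

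No paired analysis was possible because the labels give the animals of different groups no shared numbers. Calorically yoked controls were tied to single drinkers by the study's design, but which animals form a pair was not known here, so that pairing was left unused. Counts limit CHRNA5, CHRNB4 and CHRNB2 most, and cohort 2 has 3 controls.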
